A study of Vitis vinifera with 27 samples.

Results

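VITVI11G00497, a gene of the PN40024.v4 grapevine genome, is described by the study as encoding the auxin-responsive protein IAA9. Its expression was followed in latent buds of cv. Merlot. It is 1 of the 35134 genes in the count table and 1 of the 22999 genes with enough counts to be tested. The gene was chosen by its rise over phenological stages at each node in these same libraries. Its contrasts between stages are therefore given as a description, without a test, and for IAA9 only contrasts between nodes were tested.

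IAA9 belongs to the Aux/IAA family, short-lived nuclear proteins that bind auxin response factors (ARFs) and hold back the transcription of their target genes. When auxin is present, receptors of the TIR1/AFB family mark Aux/IAA proteins for degradation, and the ARFs are released. Many Aux/IAA genes are themselves induced by auxin, so that the transcript level is one layer of a feedback loop and is not a measure of the protein. In tomato, IAA9 is known for its role in leaf shape and in fruit set. In grapevine, latent buds form the inflorescence primordia of the following year during the season and then enter dormancy.

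Buds were collected from the vines of 1 vineyard in 1 season at BBCH63 (anthesis), BBCH77 (cluster closure) and BBCH90 (harvest), at node 10 (apical), node 5 (intermediate) and node 2 (basal) of the shoot. RNA-Seq was carried out on 3 biological replicates for each of the 9 groups, each replicate being a pool of buds from the same node. By design the groups differ by stage and node. The study took the buds of all nodes from the shoots cut at each session, and the main fit treats the nodes as unpaired. Whether a replicate number stands for the same shoots at each node is not stated. The paper places basal buds at a more advanced developmental stage, so node and bud age cannot be told apart. Standard plant protection and canopy management, with regular pruning of lateral shoots, were shared by all the vines. Replicate 3 of node 10 at each stage was left out by the study before the identification of differentially expressed genes (DEGs), so the comparisons rest on 24 of the 27 libraries, with 2 libraries per stage at node 10 and 3 at the other nodes. The 24 libraries are all from the same cultivar and rootstock, and each stage is a single sampling session, so that stage and sampling date cannot be told apart.

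The libraries held between 34531620 and 53307172 counts, and the TMM factors used to scale them ranged from 0.846 to 1.14. In the study's own statistics, the share of reads aligned was lower in most libraries of BBCH90 than at the earlier stages. Its part in the values of IAA9 was not tested. Of the bud meristem genes, VvVFL was detected in all groups, at 2.13 to 11.6 CPM (counts scaled to library size) in single libraries. VvTFL1A was at 0.0607 to 0.293 CPM at BBCH90, and at 1.30 to 10.4 CPM at the earlier stages. The reference gene of the study's qPCR, VvUBC28 (VITVI19G00744), averaged 145 CPM at BBCH63, 119 CPM at BBCH77 and 239 CPM at BBCH90. The 3 libraries left out did not resemble their groups across the most variable genes, and the column of BBCH90 node 10 replicate 3 repeats that of BBCH63 node 2 replicate 2. The part of the shifts of VvTFL1A and VvUBC28 between stages in the values of IAA9 was not tested. In whole buds, fewer cells of a type and less RNA per cell cannot be told apart.

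IAA9 was barely expressed at anthesis. At BBCH63 the buds of node 2 held 25, 18 and 13 counts, which corresponded to 0.672, 0.462 and 0.331 CPM. At node 5 there were 24, 26 and 27 counts, or 0.513, 0.656 and 0.553 CPM. The 2 libraries of node 10 held 25 and 23 counts, or 0.549 and 0.492 CPM. The nodes overlapped, and with so few reads counting error alone gives a coefficient of variation of 19.2 to 27.7% per library.

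At cluster closure the transcript had increased at all nodes. At BBCH77 IAA9 reached 1.32, 1.41 and 0.942 CPM at node 2, from 49, 53 and 40 counts. It reached 1.35, 1.16 and 1.28 CPM at node 5, from 66, 69 and 74 counts, and 1.23 and 1.08 CPM at node 10, from 60 and 52 counts. The lowest of these 8 libraries, replicate 3 of node 2, was still 1.40 times the highest library of BBCH63.

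The highest levels were those at harvest. At BBCH90 IAA9 was at 8.49, 10.0 and 12.7 CPM at node 2, at 10.2, 15.2 and 17.1 CPM at node 5, and at 10.1 and 12.7 CPM at node 10. The counts behind these values ranged from 275 to 584, for which counting error is 4.14 to 6.03% per library. The lowest library of BBCH90 was 6.03 times the highest of BBCH77, and no library of any stage overlapped with another stage.

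**Figure D1:**
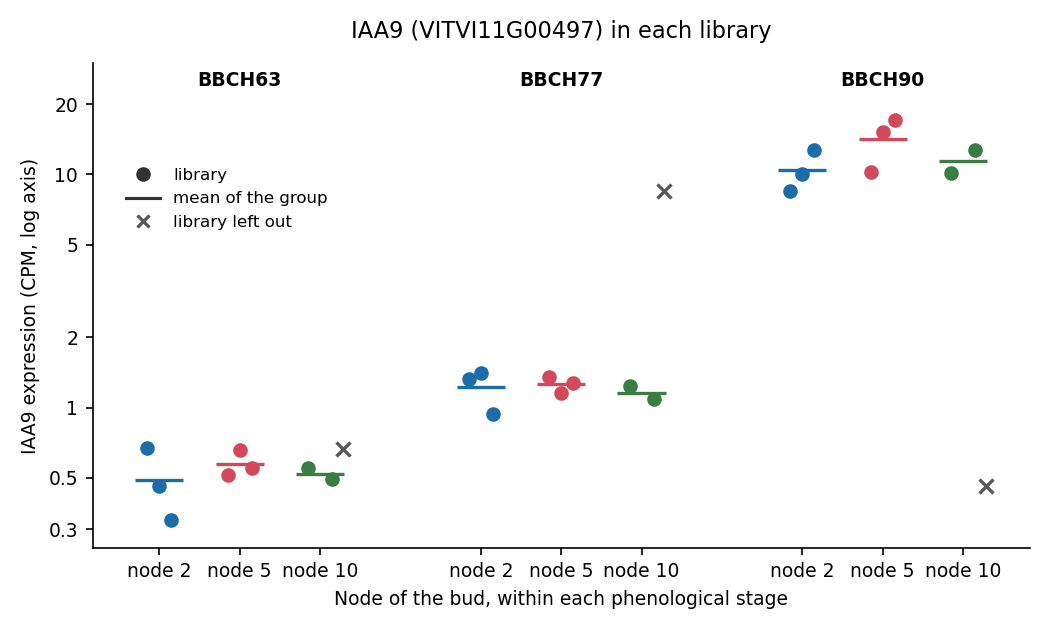
Expression of IAA9 in each library in CPM on a log axis, by stage and node. Dots are the 24 libraries kept, lines are the group means and crosses are the 3 libraries left out. The cross at BBCH90 node 10 comes from a column that repeats BBCH63 node 2 replicate 2. The kept libraries form 3 separate levels, at 0.331 to 0.672, 0.942 to 1.41 and 8.49 to 17.1 CPM, while the nodes overlap within each stage.

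Averaged over the libraries of a stage, IAA9 was at 0.528 ± 0.109 CPM at BBCH63, 1.22 ± 0.154 CPM at BBCH77 and 12.1 ± 2.92 CPM at BBCH90 (SD, n = 8 libraries each). Ordered by level, the groups of BBCH63 were node 2 with 0.488 ± 0.172 CPM (SD, n = 3), node 10 with 0.520 ± 0.0403 CPM (SD, n = 2) and node 5 with 0.574 ± 0.0735 CPM (SD, n = 3). They were followed by node 10 of BBCH77 with 1.16 ± 0.107 CPM (SD, n = 2), then node 2 with 1.22 ± 0.247 CPM and node 5 with 1.26 ± 0.0984 CPM (SD, n = 3 each). The last were node 2 of BBCH90 with 10.4 ± 2.15 CPM (SD, n = 3), node 10 with 11.4 ± 1.86 CPM (SD, n = 2) and node 5 with 14.2 ± 3.54 CPM (SD, n = 3). Neighbours in this order overlapped whenever they belonged to the same stage. Node 5 had the highest mean at each stage, and nodes 2 and 10 changed places at BBCH77.

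The rise had a similar size at the 3 nodes and was larger in its later step. At BBCH77 vs BBCH63 the log2 fold change of IAA9 was 1.32 (standard error 0.262) at node 2, 1.14 (standard error 0.249) at node 5 and 1.15 (standard error 0.309) at node 10. These correspond to 2.50, 2.20 and 2.22-fold. At BBCH90 vs BBCH77 the log2 fold change was 3.09 (standard error 0.240) at node 2, 3.48 (standard error 0.239) at node 5 and 3.30 (standard error 0.294) at node 10, or 8.53, 11.2 and 9.83-fold. Over both steps, BBCH90 vs BBCH63, the gene rose 21.3-fold at node 2, 24.6-fold at node 5 and 21.8-fold at node 10. Averaged over the nodes, the log2 fold change of BBCH90 vs BBCH63 was 4.49 (standard error 0.166), that is 22.5-fold. Of this log2 rise, 73.2% took place between BBCH77 and BBCH90. By the sampling dates of the study this step also covers the longer time, and no rate per day was computed.

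The difference between nodes in the size of a step was smaller than its standard error or close to it. For BBCH90 vs BBCH77 the log2 step at node 5 exceeded that at node 2 by 0.39 (standard error 0.339), and the step at node 10 exceeded that at node 2 by 0.21 (standard error 0.379). For BBCH77 vs BBCH63 the differences were -0.18 (standard error 0.361) for node 5 minus node 2 and -0.17 (standard error 0.405) for node 10 minus node 2. Since the steps chose the gene, these differences were not tested. Of the variance in log2 CPM of IAA9 over the 24 libraries, 98.1% lay between stages, 0.346% between nodes, 0.127% in the combination of stage and node and 1.47% between replicates.

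VvUBC28 also had more reads at BBCH90 than at BBCH63, by 0.71 on the log2 scale averaged over nodes (standard error 0.0901, edgeR adjusted p = 8.62e-07, under 2-fold). In the later step, BBCH90 vs BBCH77, it rose by 0.77 at node 2 (edgeR adjusted p = 0.000156, under 2-fold), and by more than 2-fold at node 5, by 1.17 (edgeR adjusted p = 1.8e-06), and at node 10, by 1.10 (edgeR adjusted p = 4.27e-05). The log2 rise of IAA9 exceeded that of VvUBC28 by 3.78, or 13.8-fold. Both genes varied alike among some replicates of BBCH90. Replicate 1 was the lowest for IAA9 at every node, and for VvUBC28 it was the lowest at nodes 2 and 5, with 178 CPM against 221 and 264 CPM in the other replicates of node 2, and 211 CPM against 250 and 303 CPM at node 5. At node 10 replicate 1 was the higher of both libraries for VvUBC28, at 249 against 235 CPM.

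No difference between nodes was detected for IAA9. The node contrasts did not enter the choice of the gene and were tested by edgeR (quasi-likelihood), with p values adjusted by Benjamini-Hochberg across all genes. A DEG had to change 2-fold or more at an adjusted p below 0.05. IAA9 was a DEG in none of the 12 node contrasts, and in each of them the libraries of both nodes overlapped.

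In node 5 vs node 2, IAA9 had log2 fold changes of 0.23 (95% interval -0.341 to 0.807, edgeR adjusted p = 0.614) at BBCH63 and 0.05 (95% interval -0.448 to 0.545, edgeR adjusted p = 0.912) at BBCH77. Of all genes tested, 4.82% and 4.89% were DEGs in these contrasts. The largest difference between nodes for IAA9 was that of node 5 vs node 2 at BBCH90, with means of 14.2 CPM against 10.4 CPM. Its log2 fold change was 0.44 (95% interval -0.00856 to 0.890, edgeR unadjusted p = 0.0541, edgeR adjusted p = 0.646). In that contrast edgeR found 0 DEGs among all genes (0%), with 1812 genes at an unadjusted p under 0.05, and DESeq2 found 179. Averaged over the stages, node 5 vs node 2 gave 0.24 (95% interval -0.0536 to 0.535, edgeR adjusted p = 0.228), where 3.65% of the genes were DEGs.

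In node 10 vs node 2, the log2 fold change of IAA9 was 0.10 (95% interval -0.546 to 0.738, edgeR adjusted p = 0.878) at BBCH63 and -0.07 (95% interval -0.635 to 0.486, edgeR adjusted p = 0.901) at BBCH77, with 4.61% and 1.6% of all genes as DEGs. At BBCH90 it was 0.13 (95% interval -0.369 to 0.633, edgeR adjusted p = 0.914). No gene was a DEG there with edgeR (0%), while 2185 had an unadjusted p under 0.05 and DESeq2 called 131. The average over stages was 0.05 (95% interval -0.278 to 0.381, edgeR adjusted p = 0.869), with 3.25% of the genes as DEGs.

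In node 10 vs node 5 the fitted values of IAA9 were all below 0. They were -0.14 (95% interval -0.763 to 0.490, edgeR adjusted p = 0.907) at BBCH63, -0.12 (95% interval -0.675 to 0.429, edgeR adjusted p = 1) at BBCH77 and -0.31 (95% interval -0.814 to 0.196, edgeR adjusted p = 0.753) at BBCH90. With edgeR 0 genes were DEGs at each stage (0%), with 2479, 785 and 2088 genes at an unadjusted p under 0.05, and DESeq2 called 106, 1 and 152. Averaged over the stages, IAA9 was at -0.19 (95% interval -0.515 to 0.136, edgeR adjusted p = 0.661), and 0.0739% of the genes were DEGs. All 12 intervals of IAA9 lay within 2-fold in either direction, so that a smaller difference between nodes is not excluded by these libraries.

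**Figure D2:**
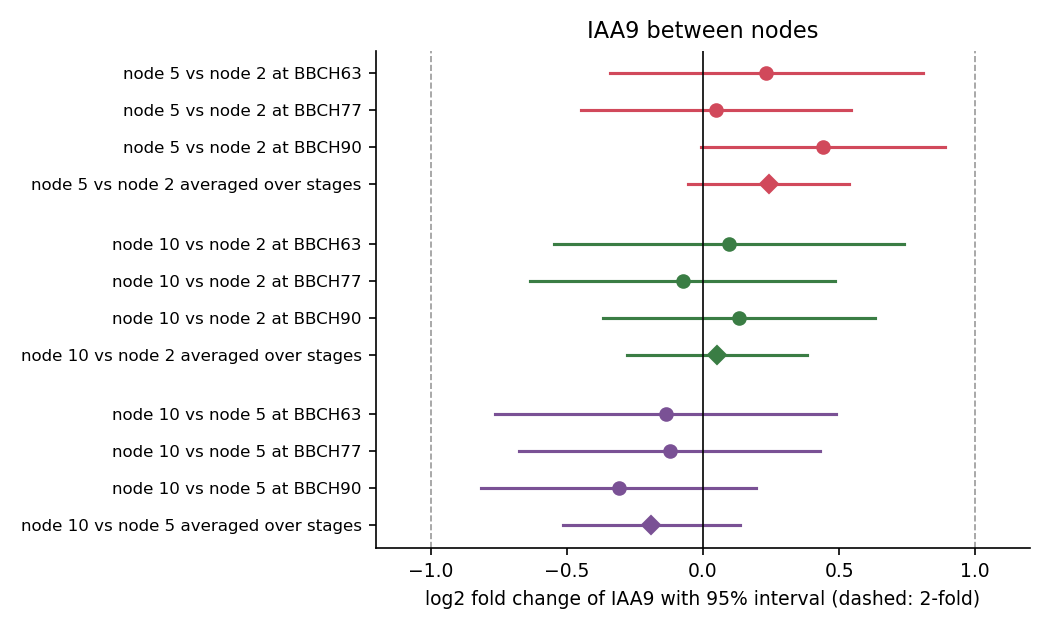
Log2 fold change of IAA9 between nodes, within each stage (circles) and averaged over stages (diamonds), with 95% intervals from the edgeR fit. Dashed lines mark a 2-fold change in either direction. All 12 intervals include 0 and lie between the dashed lines.

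IAA9 was then ranked among all genes tested, as a description of the values that chose it. For size, its log2 rise of 4.49 at BBCH90 vs BBCH63, averaged over nodes, was the 99th largest, and 0.426% of the genes had a larger one. Ranked by the smallest of the 6 steps (2 steps at 3 nodes), which was 1.14 for IAA9 at BBCH77 vs BBCH63 of node 5, it was 41st, with 0.174% of the genes above it. Its first step alone, 2.30-fold on average, ranked 1466th, and its second step alone, 9.79-fold, ranked 156th.

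Many of the genes with a large rise did not rise at every step. Of the 100 genes with the largest rise at BBCH90 vs BBCH63, 37 had all 6 steps above 0 and 7 were called up at all 6. Both were more frequent among these 100 than among all genes tested, where the shares were 10.0% and 0.109%. Next above IAA9 stood VITVI07G01866, VITVI07G00940, VITVI09G01409, VITVI18G02712 and VITVI14G01525, at ranks 94 to 98. Next below it stood VITVI02G00653, VITVI17G01543, VITVI13G02024, VITVI14G04262 and VITVI16G00716, at ranks 100 to 104. Among these 10 neighbours only VITVI14G04262, described as the myb-related protein Myb4, and VITVI16G00716 had all 6 steps above 0. VITVI18G02712 and VITVI17G01543 averaged only 0.2055 and 0.07206 CPM, so their steps rest on few counts.

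For steadiness, the smallest step was divided by the largest. This ratio is 1 for a gene that rises by the same factor at each step and node, and it can be computed for the 2304 genes (10.0% of those tested) with all 6 steps above 0. IAA9 had a ratio of 0.326, the 419th of the 2304, where the median was 0.149 and 18.1% of the genes had a higher one. The standard deviation of its 6 log2 steps was 1.15. Its later step was the larger one at every node. The ratio does not take into account that the later step covers a longer time.

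At all 6 steps, 25 genes passed the edgeR limits upwards (an adjusted p below 0.05 and a 2-fold change), which is 0.109% of the genes tested. IAA9 was one of them, but these are the values that chose it, so that its place in the set is a description and no test of its rise. The opposite pattern, down at all 6 steps, was called for 115 genes (0.5%). Among the 25, IAA9 was 7th by size, 21st by its smallest step and 23rd by steadiness. Their log2 rises at BBCH90 vs BBCH63 ranged from 2.62 to 10.1 with a median of 4.12, and their ratios of the smallest to the largest step from 0.304 to 0.785 with a median of 0.551. In 11 of the 25 genes the second step was the larger one at every node, as in IAA9. Just inside the 2-fold limit, the smallest steps of IAA9 were 1.14, 1.15 and 1.32, all at BBCH77 vs BBCH63. IAA9 was not in the set when BBCH63 node 10 replicate 1 or 2, or BBCH77 node 10 replicate 1, was left out. These fits keep a single library in that group of node 10, which is assumed to vary like the libraries of the other groups, and the 6 steps of IAA9 were all above 2-fold in them.

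Without any model, 259 genes (1.13%) had libraries rising without overlap at both steps of all 3 nodes. IAA9 was the 14th of these by size, and 23 of the 25 genes above were among them. With the nodes pooled, 125 genes (0.544%) had 3 sets of stage libraries that rose and did not overlap, IAA9 included.

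**Figure D3:**
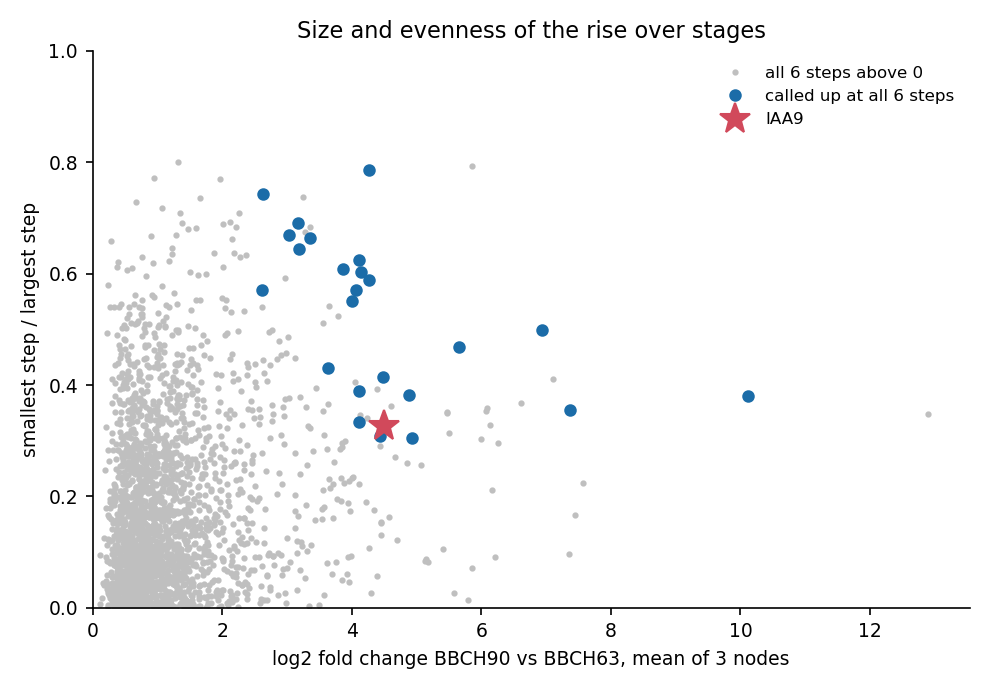
Size and steadiness of the rise for the 2304 genes with all 6 steps above 0. The x axis is the log2 fold change of BBCH90 vs BBCH63 averaged over nodes, and the y axis the smallest of the 6 steps divided by the largest. Blue dots are the 25 genes called up at all 6 steps, and the star is IAA9, at 4.49 and 0.326, near the lower edge of the blue dots.

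The study's supplementary list of genes upregulated at each step in all nodes holds 32 genes, IAA9 among them. They were chosen on these samples, so their direction is not independent evidence and their values are only described. All 32 passed the low-count filter, and they included all 25 genes called up at the 6 steps here. Their median log2 rise at BBCH90 vs BBCH63 was 4.2, against -0.00194 for all genes tested. IAA9 was the 11th by size, the 25th by its smallest step and the 27th by steadiness.

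The largest rises of the list were those of VITVI16G01978, an acidic endochitinase, with a log2 fold change of 12.9, VITVI12G02718, the protein TIFY 10A, with 10.1, and VITVI01G01644, the cytochrome P450 78A4, with 7.57. Endochitinases cleave chitin and are known from plant defence, and TIFY 10A belongs to the JAZ family, the repressors of jasmonate signalling, which like Aux/IAA proteins are degraded in the presence of their hormone. The smallest rises were 2.62 for VITVI05G00009, UDP-glucuronic acid decarboxylase 2, which makes UDP-xylose for cell walls, 2.62 for VITVI06G00440, an osmotin-like protein, and 3.04 for VITVI04G01519, the F-box protein SKIP23-like. VITVI16G01978 held 0 to 4 counts at BBCH63 and none at node 10, so its fitted value is no exact size. Against a floor of 3 counts per library it was at least 1780-fold higher at BBCH90 than at BBCH63 of node 10, and with that floor in the 3 groups of BBCH63 its averaged log2 rise was 11 and the median of the list stayed at 4.2. The share of the log2 rise in the later step was 73.2% for IAA9, 72.7% for VITVI01G01644 and 44% for VITVI05G00009. In 16 of the 32 genes the later step was the larger at every node.

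**Figure D4:**
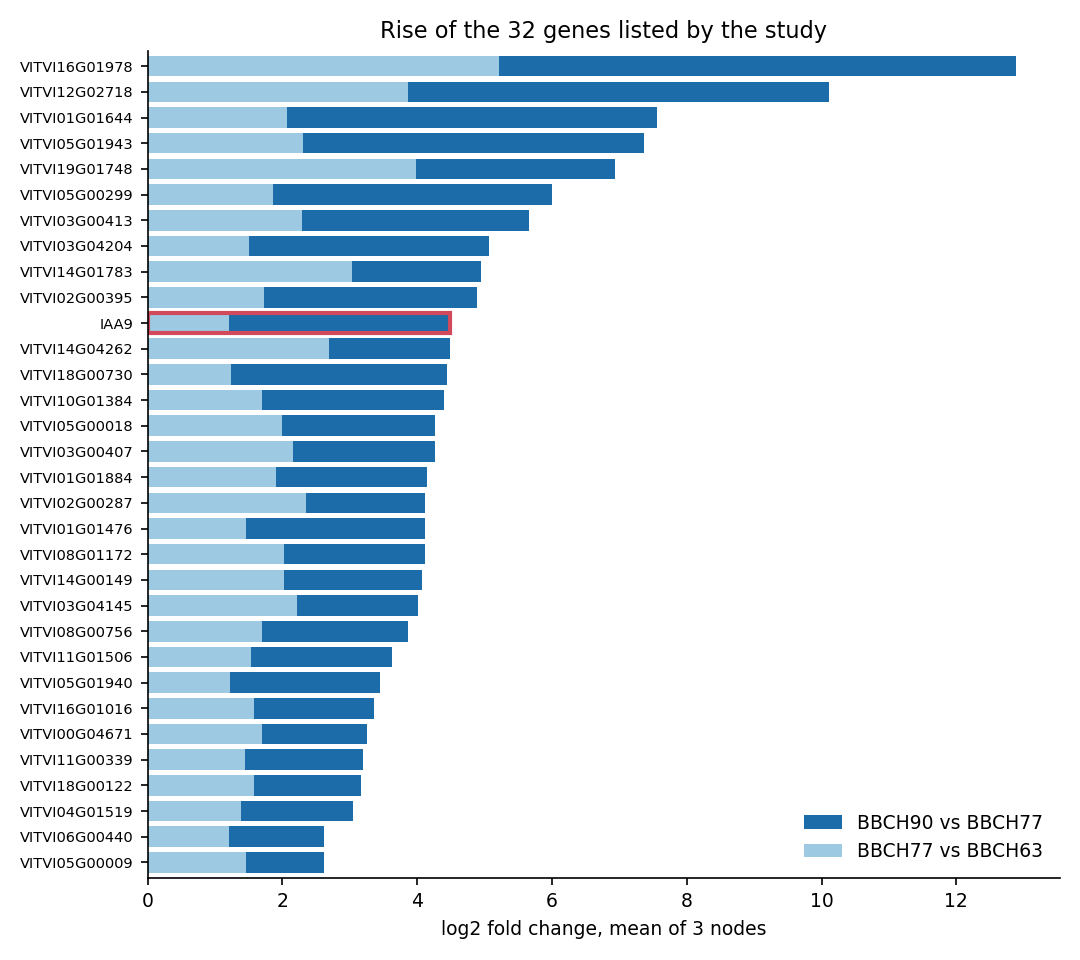
Log2 fold change of the 32 listed genes, averaged over the 3 nodes and split into BBCH77 vs BBCH63 (light) and BBCH90 vs BBCH77 (dark), with the IAA9 bar outlined. The bar of VITVI16G01978 rests on a group with 0 counts. IAA9 is the 11th by total length, with 1.2 in the earlier step and 3.29 in the later one.

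Genes following IAA9 were searched by the Pearson correlation of log2 CPM over the 24 libraries. These libraries share their stages, which make up nearly all the variance of IAA9, and the correlations are a description with no test. The highest was that of VITVI08G01369 (r = 0.991), followed by VITVI09G00588 (0.989), VITVI14G00185 (0.988), VITVI01G00330 (0.988) and VITVI11G00109 (0.988). The next were VITVI18G00730 (0.987), VITVI18G02743 (0.986), VITVI05G00886 (0.986), VITVI13G00102 (0.986) and VITVI03G00079 (0.985). Of these 10, the study's list describes only VITVI18G00730, a probable isoaspartyl peptidase/L-asparaginase 2, an enzyme type that releases ammonium from asparagine. No gene product is given here for the others.

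A high correlation did not mean a rise of the same size. VITVI08G01369 averaged 8.21, 17.6 and 146 CPM at BBCH63, BBCH77 and BBCH90 of node 2, 10.7, 18.5 and 168 CPM at node 5, and 11.2, 18.8 and 170 CPM at node 10. Its log2 fold change at BBCH90 vs BBCH63 was 4.02. VITVI14G00185 had a log2 fold change of 4.45 and VITVI18G00730 one of 4.43, close to the 4.49 of IAA9. VITVI09G00588, in contrast, changed by only 1.10, with 86.9, 111 and 184 CPM at the 3 stages of node 2. VITVI18G00730 was also among the 25 genes called up at all 6 steps, and the other 9 were not.

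The lowest correlations were those of VITVI02G00390 (r = -0.990), VITVI11G00129 (-0.987) and VITVI04G01475 (-0.985). VITVI04G01475 is described as the MLO-like protein 4, of a membrane protein family known for its members in powdery mildew susceptibility. It averaged 18.8, 8.64 and 0.222 CPM at BBCH63, BBCH77 and BBCH90 of node 2, falling at both steps. At BBCH90 its libraries held only 3 to 12 counts, so the size of the later fall is imprecise.

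**Figure D5:**
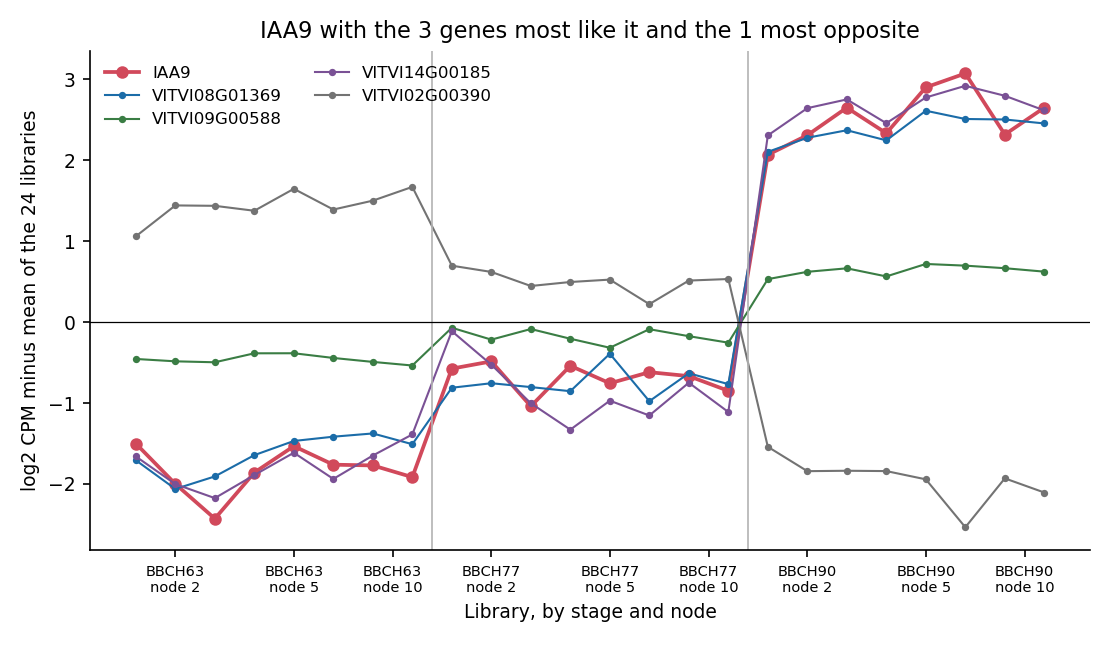
Log2 CPM of IAA9, of the 3 genes with the highest correlation with it and of the 1 with the lowest, each minus its mean over the 24 libraries, which are ordered by stage and node. The 3 most similar genes step up at the same stage borders as IAA9, and VITVI09G00588 covers a smaller range.

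Such correlations were common. A value of at least 0.9 was found for 1752 genes (7.62% of those tested), at least 0.95 for 437, and at most -0.9 for 1702 (7.4%), around a median of -0.0253 over all genes. The other 31 genes of the study's list ranged from 0.863 to 0.987, with a median of 0.947. After the mean of each group was subtracted, the correlations of the 10 closest genes with IAA9 were 0.318 to 0.685. The genes closest to IAA9 within groups were others, with VITVI09G00111 at 0.870 (0.360 before the subtraction), VITVI14G01280 at 0.857 (0.711) and VITVI03G01571 at 0.855 (0.930), named after their values were seen.

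Other auxin-related products appear in the same supplementary table, both among the genes the study listed as decreasing at each step. VITVI03G01336 is described as the auxin-induced protein 6B, a name used for SAUR proteins, which are small proteins induced early by auxin. It averaged 25.6, 9.43 and 0.238 CPM at BBCH63, BBCH77 and BBCH90 of node 2, 34.0, 13.9 and 0.297 CPM at node 5, and 33.5, 14.1 and 0.272 CPM at node 10. VITVI09G01515 is described as the auxin-binding protein ABP19a, a germin-like protein. It averaged 5.79, 0.821 and 0.0103 CPM at the 3 stages of node 2, 10.2, 1.37 and 0.0179 CPM at node 5, and 14.6, 1.34 and 0.0440 CPM at node 10. At BBCH90 its libraries held 0 to 2 counts, under the floor of 3 counts per library set here, so no fold is given. Both were called down at all 6 steps, the opposite of IAA9, in a table where only 0.5% of all genes were, but they were listed for this direction. For VITVI09G01515 the calls of the later step rest on these few counts at BBCH90. VITVI03G01336 held 2 to 17 counts per library at BBCH90, so its calls of the later step also rest on few counts.

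Between nodes, VITVI09G01515 was higher in node 10 vs node 2 at BBCH63, with 14.6 ± 1.77 CPM (SD, n = 2) against 5.79 ± 1.25 CPM (SD, n = 3) and a log2 fold change of 1.34 (standard error 0.352, edgeR adjusted p = 0.0243). It was a DEG in no other node contrast, and VITVI03G01336 and IAA9 were in none. Other genes of auxin synthesis, transport and signalling were not analysed here.

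Of the 3 columns left out, 2 were far from their labelled group in IAA9. BBCH77 node 10 replicate 3 held 353 counts, or 8.52 CPM, against 1.08 to 1.23 CPM in the other libraries of that group, and within the 8.48 to 12.7 CPM of BBCH90 node 2. Across the 3000 most variable genes this library had a correlation of -0.647 with its labelled group and 0.870 with BBCH90 node 2, so its label is in doubt. The column labelled BBCH90 node 10 replicate 3 held 18 counts, or 0.461 CPM, against 10.1 to 12.7 CPM in its labelled group. Its counts were identical to those of BBCH63 node 2 replicate 2 at all genes. The study's own statistics give different read totals for these 2 libraries. The 18 counts therefore cannot be taken as a value of BBCH90 node 10. BBCH63 node 10 replicate 3 held 33 counts, or 0.661 CPM, against 0.491 to 0.549 CPM in its group, a difference within counting error. With these 3 columns included, the repeated one among them, the log2 fold changes of IAA9 at node 10 were 2.66 for the earlier step and 1.11 for the later one. In that fit 0 genes were called up at all 6 steps by edgeR, or passed at an unadjusted p under 0.05 with at least a 2-fold change. Among the 24 libraries kept, BBCH77 node 2 replicate 3 had a correlation of 0.150 with its group across the 3000 most variable genes, against 0.895 with BBCH77 node 10, and it was also the lowest of its stage for IAA9. Without it the log2 fold change of IAA9 at BBCH77 was -0.11 for node 5 relative to node 2 and -0.24 for node 10 relative to node 2, again with no call. Other kept libraries were also closer to another node of their stage than to their own group. Both libraries of BBCH77 node 10 had 0.721 with their group, against 0.809 and 0.852 with BBCH77 node 5. The others were BBCH63 node 5 replicate 3, BBCH77 node 5 replicate 2, BBCH90 node 2 replicate 3 and BBCH90 node 5 replicate 3.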

How the data were processed

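Latent buds of cv. Merlot were sequenced in 27 libraries from stranded mRNA preparations. The authors trimmed adaptors, mapped them on PN40024.v4 and deposited the unnormalized count of reads for each gene. FastQC, HISAT2 and HTSeq are named in the submitters' processing notes, without versions. The replicates are separate pools of buds.

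Genes passing filterByExpr (minimum count 10) were kept, 22999 of 35134. Counts were scaled by TMM and fitted in edgeR 4.0.16 (R 4.3.3) with 1 mean per group over 24 libraries. Standard errors were derived from the F values of the test. CPM of left-out libraries were scaled over 27. Log2 CPM used a prior count of 2. The scripts were tested on simulated data.

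Alternatives were DESeq2 1.42.0, its size factors in edgeR, no filter, all 27 libraries, a replicate block, only the groups of a contrast, Spearman's rho, group means, a prior count of 0.5 and each library left out. Library totals and an adjusted p of 0.01 were added after seeing the data.

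The gene, the lists and the tests were chosen with earlier results of these data known. Named genes are the 10 most and 3 least correlated with IAA9, its 5 neighbours on either side by size, the 3 largest and 3 smallest rises of the study's list, VvUBC28, and the genes of the study's supplementary table described as auxin-related. Gene products come from that table. The annotation table used here shares no identifiers with the counts, so no wider auxin list, sequence or coordinate is given.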

Additional observations from a re-analysis of the deposited data

Results flagged for a closer look

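IAA9 was above the other libraries of the labelled group in 2 of the libraries that enter no comparison. In the library labelled BBCH77 node 10 replicate 3 it was at 8.52 CPM, against 1.08 to 1.23 CPM in replicates 1 and 2 of that group. Across the 3000 most variable genes this library had a correlation of -0.647 with its labelled group and 0.870 with BBCH90 node 2, where IAA9 was at 8.48 to 12.7 CPM, so the value cannot be taken as one of BBCH77 node 10. In the library labelled BBCH63 node 10 replicate 3 it was at 0.661 CPM, against 0.491 to 0.549 CPM. These values come from 33 counts (95% counting interval 22.7 to 46.3), against 25 counts (16.2 to 36.9) and 23 counts (lower bound 14.6), and the 3 intervals overlap, so no difference was detectable at this depth. This library had a correlation of 0.0488 with its labelled group and 0.503 with BBCH77 node 2. The cause of either value was not tested.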

How the results depend on the processing

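Over 369 refitted contrasts between nodes, IAA9 was never called. The lowest adjusted p was 0.0313, for node 5 vs node 2 averaged over stages with libraries scaled by totals alone (log2 fold change 0.38), a scaling that moved the median of all genes in this contrast by 0.131; relative to that median IAA9 was at 0.224, and at 0.218 with TMM. In the other alternatives over the 24 libraries the adjusted p of this contrast was at least 0.104. The 6 steps of IAA9 stayed above 2-fold in 29 of 29 refits of the 24 libraries, with a lowest log2 value of 1.05. These steps chose the gene and the refits reuse the same libraries, so this count is a description and no support for the rise. With library totals alone the log2 fold changes of BBCH90 vs BBCH77 were 3.19 at node 5 and 3.09 at node 10, where the medians of all genes moved by -0.288 and -0.208. Relative to these medians IAA9 was at 3.49 and 3.35, and at 3.50 and 3.34 with TMM. The rank for steadiness was 245 with totals alone. All 27 libraries include the repeated column labelled BBCH90 node 10 replicate 3. With them the log2 fold changes of node 10 were 2.66 at BBCH77 vs BBCH63, 1.11 at BBCH90 vs BBCH77 and 3.77 over both. The rank was then 10 for the smallest step and 192 for steadiness. The genes called up at all 6 steps were 0, against 25 in the 24 libraries, and the cause was not tested. They were 11 at an adjusted p under 0.01, and 13 to 27 with each library left out, the fewest without BBCH77 node 10 replicate 2 and 15 without either replicate of BBCH63 node 10, where the remaining library is assumed to vary like the other groups. Of the 10 genes most like IAA9, 1 remained with Spearman's rho and 5 with group means, and 7 to 10 with each library left out. The 2 other auxin-described genes were called down at 4 of 12 steps with all 27 libraries. The deviations of same-numbered replicates of a stage had correlations of -0.159 to 0.415 (21 pairs, median -0.000226, 6 above 0.1). With different numbers in a stage these were -0.391 to 0.232 (42 pairs, median 0.000567, 5 above 0.1). Between stages, 22 of 66 same-numbered pairs were above 0.1, against 14 of 126 other pairs. Whether same-numbered replicates deviate together was not tested. With a replicate block the rise averaged over nodes was 4.49, and node 5 vs node 2 averaged over stages was 0.24 (edgeR adjusted p = 0.255). The genes called up at all 6 steps were then 27. The 13 to 27 counts of IAA9 per library at BBCH63 limit the precision of its first step.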
